A study of Mus musculus with 6 samples.

Results

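The matrix proteases and their inhibitors were followed in mouse forelimb bud ectoderm as the genes named Mmp, Adam, Adamts or Timp with a number. They were picked out by symbol, and the families were chosen with earlier results of these data known. By symbol, 78 of the 49452 genes in the table matched: 23 MMPs, 32 ADAMs, 19 ADAMTS proteases and 4 TIMPs. Expression was given as FPKM, the fragments counted per length of transcript and per library size, so levels could be compared between genes. The study measured RNA of 3 Sp8 null and 3 wild-type embryos at E10.5 to find the transcripts that need Sp8, which encodes a zinc finger protein that regulates transcription in this tissue. Each library came from the ectoderm of both forelimbs of a single embryo, freed with trypsin and forceps. Wild-type embryos came from C57BL/6 matings. The null embryos came from matings of Sp8 heterozygotes whose mutant allele is labelled Sp8-Cre-ERT2, on a background given as C57BL6J, so the knockout allele and the cross differed together between the groups. The tissue was bulk, so fewer cells of a type and less RNA per cell cannot be told apart.

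Matrix proteases cut the proteins and proteoglycans between cells, and they also release or activate signals held at the cell surface or in the matrix. MMPs mostly digest matrix, and some are anchored in the membrane. ADAMs are membrane proteins, many of which shed the outer parts of receptors and growth factors. ADAMTS proteases are secreted enzymes whose thrombospondin repeats hold them near the matrix, where different members cut large proteoglycans, trim procollagen or act around fibrillin. TIMPs bind to the catalytic site of these enzymes and block it. In the limb bud the ectoderm lies on a basement membrane and its hyaluronan-rich matrix holds versican, a substrate of several ADAMTS proteases.

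Sp8 itself was at 0.766, 0.460 and 1.14 FPKM in the null libraries and at 8.35, 11 and 13.5 FPKM in the wild-type libraries, as the labels say. Relative depth lay between 0.843 and 1.04, with wild-type embryo 1 as the reference, and 11835 to 12245 genes per library reached 1 FPKM. Surface ectoderm markers were abundant in every library, with 10 genes summing to 588.4 to 706.4 FPKM in the null and 713.1 to 777.2 FPKM in the wild type. These sums did not overlap and were lower in the null. In the test described below 2 of the 10 differed between the genotypes. Epcam was lower in the null (log2 fold change -0.53, limma adjusted p = 0.0313) and Tfap2a higher (0.52, limma adjusted p = 0.0163). The 13 limb mesenchyme markers summed to 45.7, 150.3 and 43.0 FPKM in null embryos 1, 2 and 3 and to 74.0, 39.4 and 59.5 FPKM in the wild type, so null embryo 2 stood apart. The 6 erythroid markers set wild-type embryo 1 apart, at 421.7 FPKM against 36.1 and 11.6 FPKM in the other wild-type libraries and 61.9 to 161.5 FPKM in the null. Endothelial markers summed to 2.25 to 4.63 FPKM over all 6 libraries. Macrophage markers were low but did not overlap between the groups, at 3.01, 5.37 and 4.36 FPKM in the null and 2.94, 1.69 and 1.86 FPKM in the wild type. The part of these cells in the results was not tested. Nothing in the labels says whether embryos of a group shared a litter.

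The catalytic centre of the enzymes is shown first, because it defines what these proteins share and which of them can be proteases. A zinc ion is held by 3 histidines in the pattern His-Glu-x-x-His-x-x-Gly-x-x-His, where x is any residue. The longest coding sequence of each member in GENCODE M21 (GRCm38) was translated and searched for this pattern, with Asn or Ser also allowed in place of Gly. All 23 MMPs held it with Gly, as did 13 of the 19 ADAMTS genes. Adamts1, Adamts4, Adamts9, Adamts15 and Adamts20 had Asn at that position, and Adamts8 had Ser. Of the 32 ADAMs, 19 held the pattern and 13 did not, among them Adam22, Adam11 and Adam23, and it was in none of the 4 TIMPs. The coding strand of the 7 enzymes that differed between the genotypes follows, 33 bases each, 5′ to 3′, with the codons of the fixed residues in capitals.

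Adamts18: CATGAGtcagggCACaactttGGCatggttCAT
Adamts3: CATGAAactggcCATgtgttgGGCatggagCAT
Adamts20: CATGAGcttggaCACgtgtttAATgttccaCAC
Adamts5: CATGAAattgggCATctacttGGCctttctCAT
Adamts17: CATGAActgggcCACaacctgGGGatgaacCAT
Adam9: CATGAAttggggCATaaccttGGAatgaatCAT
Adam19: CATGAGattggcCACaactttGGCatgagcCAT

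In the 5 ADAMTS genes the 33 bases were split by an intron, between exons 8 and 9 in Adamts18, Adamts3, Adamts20 and Adamts17 and between exons 2 and 3 in Adamts5. In Adam9 and Adam19 they lay within exon 11. Adamts20 was the one of the 7 with an Asn codon (AAT) in place of the Gly codon. Of the 61 proteases with the pattern 18 were expressed highly enough to be tested, and of the 13 without it 1 was, Adam22.

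Genes were tested when they reached at least 1 FPKM in at least 3 libraries, on log2(FPKM + 1), with limma and Benjamini-Hochberg adjustment over all 12133 genes tested. Under this rule 21 of the 78 members were tested and 57 were not, of which 19 were listed at 0 in every library. Of the 21, 8 differed between the genotypes at an adjusted p under 0.05, and 7 of the 8 were lower in the null. Over all genes tested, 6.83% differed, 5.15% lower and 1.68% higher. At least 2-fold on the log2(FPKM + 1) scale were 6 of the 21 members, against a background of 1.46%. The median log2 fold change was -0.21 over the tested members and -0.06 over all tested genes. Null and wild-type libraries did not overlap for 11 of the 21 members, against a background of 29.8%. At an unadjusted p under 0.05 there were 11 members, against a background of 24.0%.

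Called members were then counted by family. ADAMTS proteases had 5 of 8 tested members called, 4 lower and 1 higher. ADAMs had 2 of 6, both lower, and TIMPs 1 of 2, lower. MMPs had 0 of 5 in limma, with 1 at an unadjusted p under 0.05. These are descriptions of small lists, and no test compared the families.

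Sample names began with 4 for embryo 1 of each genotype and with 5 for the other 4 libraries, for a reason the labels do not give. Within the libraries named with 5, 2 per genotype, Adamts18 (log2 fold change -1.73), Adamts3 (-2.02), Adamts20 (-1.48), Adam9 (-1.03) and Adamts17 (1.51) still passed with the same genes tested (limma adjusted p = 0.00681, 0.0114, 0.0257, 0.0168 and 0.00578). Timp3 (-0.79), Adam19 (-1.20) and Adamts5 (-0.55) kept their direction there without passing (limma adjusted p = 0.0607, 0.0903 and 0.172).

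**Figure D1:**
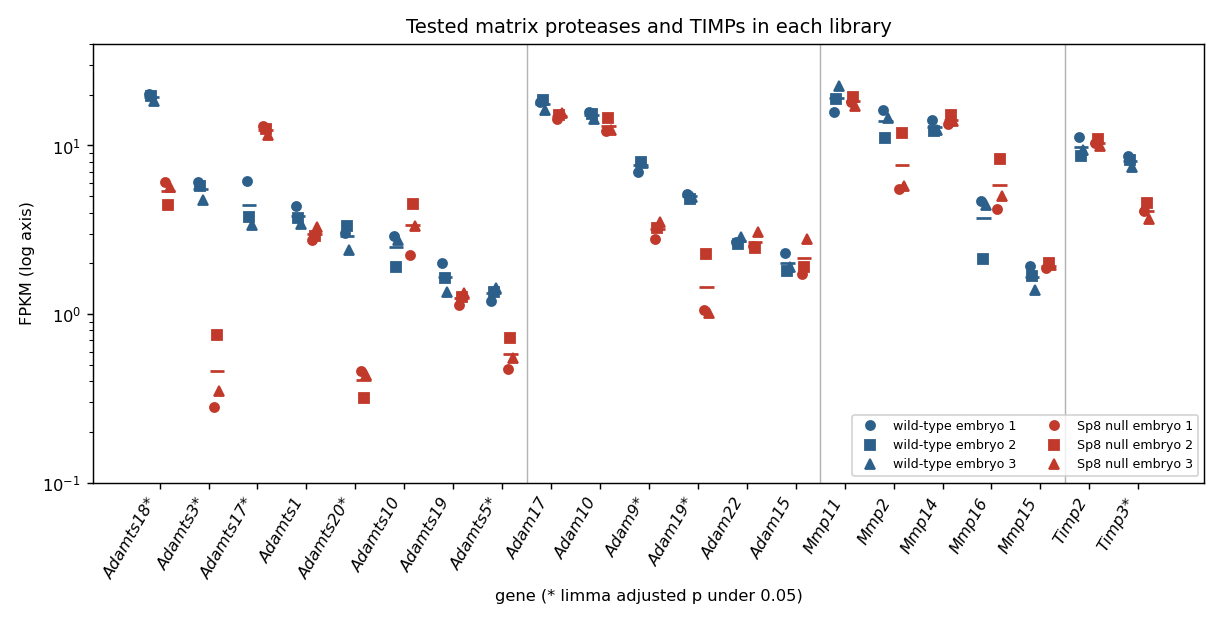
FPKM of the 21 tested members in each of the 6 libraries on a log axis, grouped by family and ordered by wild-type mean within it. Points are libraries, short lines are group means, and an asterisk marks an adjusted p under 0.05 in limma. Adamts18, Adamts3, Adamts20, Adam9, Adam19, Adamts5 and Timp3 have every null library below every wild-type library, and Adamts17 the opposite.

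In wild-type ectoderm the members at the highest levels were Adamts18 (19.4 ± 0.963 FPKM, SD, n = 3), Mmp11 (19.0 ± 3.27), Adam17 (17.6 ± 1.23), Adam10 (15.2 ± 0.794), Mmp2 (14.0 ± 2.62) and Mmp14 (12.9 ± 1.15). Neighbours in this order overlapped in their single libraries, except that all Adam17 values (16.2 to 18.5 FPKM) were above all Adam10 values (14.3 to 15.8 FPKM). Timp2, Timp3 and Adam9 came next, between 7.01 and 11.3 FPKM, of which Timp3 and Adam9 overlapped, and then Adamts3 at 5.55 ± 0.70 FPKM. In the null the order was Mmp11 (18.3 ± 1.17 FPKM), Adam17 (15 ± 0.587), Mmp14 (14.2 ± 0.846), Adam10 (13.1 ± 1.32) and Adamts17 (12.3 ± 0.742). Adamts18 was at 5.38 ± 0.851 FPKM there and Adamts3 at 0.461 ± 0.256 FPKM.

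Adamts18 (ENSMUSG00000053399; GRCm38, chr8:113697126-113848738, minus strand), a secreted protease whose loss in mice disturbs the branching of several epithelial organs, was the most abundant ADAMTS transcript of wild-type ectoderm. It was at 20.3, 19.6 and 18.4 FPKM in wild-type embryos 1, 2 and 3 and at 6.04, 4.42 and 5.67 FPKM in null embryos 1, 2 and 3. All 3 null libraries lay below all wild-type libraries, with no value between 6.04 and 18.4 FPKM. The wild-type mean was 3.61-fold that of the null, and the log2 fold change was -1.68 (95% interval -1.95 to -1.42, SE 0.11, limma adjusted p = 2.78e-04). Adamts16, its closest relative in the family, was under the filter, at 0.214 to 0.297 FPKM in wild type and 0.275, 0.973 and 0.604 FPKM in the null. The ratio of Adamts16 to Adamts18 stayed at 0.220 or less in every library.

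Adamts3 (ENSMUSG00000043635; chr5:89677087-89883334, minus strand) removes the amino-terminal propeptide of procollagen and takes part in the activation of the lymphatic growth factor Vegfc. It was at 6.10, 5.78 and 4.76 FPKM in the wild type and at 0.280, 0.754 and 0.348 FPKM in the null. The groups were far apart, and the highest null value was that of embryo 2. This was the largest log2 fold change of any tested member, -2.17 (95% interval -2.53 to -1.81, SE 0.15, limma adjusted p = 3.52e-04), and the wild-type mean was 12-fold that of the null. The other procollagen N-proteinases were far lower: Adamts2 was at 0.183 to 0.254 FPKM in wild type and 0.107 to 0.127 FPKM in the null, and Adamts14 did not exceed 0.147 FPKM in any library. Adamts3 thus was at least 39.4 times Adamts14 in each wild-type library, and 4.19 to 37.9 times it in the null.

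The hyalectanases are the ADAMTS branch that cuts versican, aggrecan and related proteoglycans, and 3 of its 7 members were tested. Adamts20 (ENSMUSG00000022449; chr15:94270163-94465418, minus strand), the gene mutated in the belted mouse, was at 3.01, 3.31 and 2.40 FPKM in the wild type and at 0.459, 0.317 and 0.438 FPKM in the null. The groups did not overlap, and the null libraries lay close together. The wild-type mean was 7.18-fold that of the null, and the log2 fold change was -1.47 (95% interval -1.77 to -1.17, SE 0.13, limma adjusted p = 9.36e-04). Adamts9, the member most like Adamts20, was under the filter with overlapping groups, at 1.52, 1.5 and 0.678 FPKM in wild type and 0.691, 0.969 and 0.453 FPKM in the null. In every wild-type library Adamts20 exceeded Adamts9 (ratio of Adamts9 to Adamts20 0.283 to 0.504), and in every null library the order was turned (1.03 to 3.06).

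Adamts5 (ENSMUSG00000022894; chr16:85856173-85901828, minus strand), an aggrecanase that also cuts versican, was at 1.20, 1.35 and 1.43 FPKM in the wild type and at 0.472, 0.722 and 0.546 FPKM in the null. Every null library was lower, and the log2 fold change was -0.56 (95% interval -0.84 to -0.28, SE 0.12, limma adjusted p = 0.0371). This call was lost in 15 of 18 other settings that tested the gene, with limma adjusted p between 0.0183 and 0.172 over those settings. Adamts1, another versican-cutting member, was at 4.37, 3.69 and 3.41 FPKM in wild type against 2.76, 2.91 and 3.30 FPKM in the null. The groups did not overlap, but the gap was narrow, and the log2 fold change of -0.27 (95% interval -0.53 to -0.01) did not pass (limma adjusted p = 0.196). Under the filter, Adamts15 was at 0.178, 0.256 and 0.191 FPKM in wild type and 0.536, 0.512 and 0.40 FPKM in the null. It was thus higher in all 3 null libraries at a low level, and did not pass when limma was run with no filter (log2 fold change 0.29, adjusted p = 0.103).

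Adamts17 (ENSMUSG00000058145; chr7:66839735-67153171, plus strand) was the only member called higher in the null. It is a secreted protease that, like Adamts10, is linked to fibrillin and to human short stature syndromes with lens defects. Its values were 6.16, 3.76 and 3.36 FPKM in the wild type and 13.0, 12.5 and 11.5 FPKM in the null. Every null library lay well above the highest wild-type library, embryo 1. The null mean was 2.79-fold that of the wild type, and the log2 fold change was 1.33 (95% interval 0.91 to 1.75, SE 0.18, limma adjusted p = 0.00667). Without wild-type embryo 1, the library with the high erythroid markers, it was 1.55 (limma adjusted p = 9.58e-04). Adamts19, its closest relative, was at 2.02, 1.63 and 1.36 FPKM in wild type against 1.13, 1.26 and 1.33 FPKM in the null, lower in the null by a margin that was almost closed between wild-type and null embryo 3. Its log2 fold change was -0.25 (95% interval -0.54 to 0.05, limma adjusted p = 0.287). The ratio of Adamts17 to Adamts19 was 3.06, 2.30 and 2.46 in the wild type and 11.5, 9.87 and 8.64 in the null. Adamts10 was at 2.89, 1.90 and 2.75 FPKM in wild type against 2.24, 4.51 and 3.32 FPKM in the null, with overlapping groups and its highest value in null embryo 2 (log2 fold change 0.29, 95% interval -0.20 to 0.77, limma adjusted p = 0.450).

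The falls and the rise together changed which ADAMTS transcripts made up the family total. Summed over all 19 genes, ADAMTS transcripts were at 51.7, 45.5 and 41.4 FPKM in the wild type and 29.7, 33.4 and 30.8 FPKM in the null. Adamts18 made up 42.1 ± 2.66% of that sum in wild type and 17.3 ± 3.66% in the null (SD, n = 3). Adamts17 went the other way, from 9.43 ± 2.15% to 39.5 ± 3.62%, and became the largest component in each null library. Adamts3 went from 12 ± 0.629% to 1.44 ± 0.712% and Adamts20 from 6.29 ± 0.856% to 1.30 ± 0.314%. Without Adamts17 and Adamts18 the remaining 17 genes summed to 25.3, 22.2 and 19.7 FPKM in wild type and 10.7, 16.5 and 13.6 FPKM in the null, again with no overlap. These sums include the genes already tested and add no independent evidence.

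**Figure D2:**
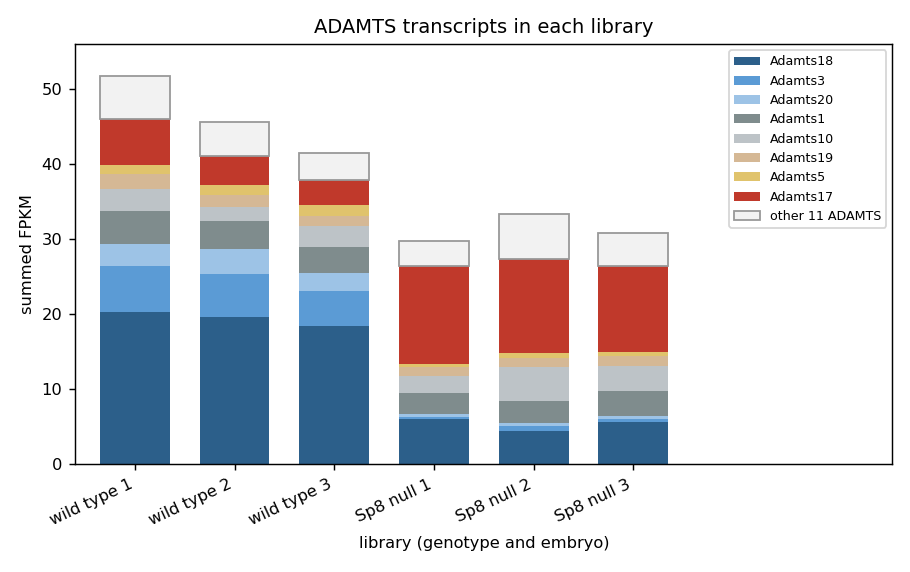
Summed FPKM of the 19 ADAMTS genes in each library, with the 8 tested members as coloured segments and the other 11 genes as 1 pale segment. The sum lies between 41.4 and 51.7 FPKM in wild type and between 29.7 and 33.4 FPKM in the Sp8 null, and the largest segment is Adamts18 in the former and Adamts17 in the latter.

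Among the ADAMs, 2 of the 6 tested members fell. Adam9 (ENSMUSG00000031555; chr8:24949611-25016927, minus strand), a widely expressed membrane-bound sheddase, was at 7.01, 7.94 and 7.92 FPKM in the wild type and at 2.78, 3.24 and 3.50 FPKM in the null. The 3 null libraries were close to each other and all were below the wild type. Its log2 fold change was -1.05 (95% interval -1.29 to -0.81, SE 0.10, limma adjusted p = 0.00156), with a 2.40-fold higher mean in wild type. Adam19 (ENSMUSG00000011256; chr11:46055992-46147343, plus strand), also called meltrin beta and known for shedding neuregulin and for its part in heart valve development, was at 5.19, 4.84 and 4.97 FPKM in the wild type and at 1.06, 2.27 and 1.02 FPKM in the null. The wild-type libraries were nearly equal, and null embryo 2 was the highest of the null libraries. The log2 fold change was -1.33 (95% interval -1.77 to -0.89, SE 0.19, limma adjusted p = 0.00812). Exons of antisense genes cover 10.1% of the exonic bases of Adam19, and whether counting used strand was not stated, so reads of both strands cannot be told apart there.

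The sheddases best known for Notch and for EGF receptor ligands did not pass the threshold. Adam17, which releases tumour necrosis factor and EGF family ligands, was at 18.1, 18.5 and 16.2 FPKM in the wild type and at 14.4, 15.1 and 15.5 FPKM in the null, with no overlap but a small gap (log2 fold change -0.21, 95% interval -0.40 to -0.03, limma adjusted p = 0.156). Adam10, which cuts Notch receptors, was at 15.8, 15.3 and 14.3 FPKM in wild type against 12.2, 14.6 and 12.4 FPKM in the null, and its groups overlapped (log2 fold change -0.20, 95% interval -0.42 to 0.01, limma adjusted p = 0.225). Those intervals bound any fall of either gene to less than a halving on this scale. Adam15 (1.73 to 2.80 FPKM over all 6 libraries) and Adam22 (2.47 to 3.05 FPKM) had overlapping groups, log2 fold changes of 0.05 and -0.02 and 95% intervals of -0.30 to 0.41 and -0.26 to 0.23. Adam22 lacks the zinc-binding pattern and acts as a receptor for secreted LGI proteins. Exons of a gene on the other strand cover part of Adam15 (20.6% of exonic bases) and Adam17 (4.35%). Summed over all 32 genes, ADAM transcripts were at 51.3 to 54.1 FPKM in wild type and 37.1 to 43.3 FPKM in the null.

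None of the 5 tested MMPs passed the threshold. Mmp11, also called stromelysin 3, which is activated inside the cell by furin, was the most abundant, at 15.9, 18.8 and 22.4 FPKM in the wild type and 18.2, 19.5 and 17.1 FPKM in the null. The wild-type libraries enclosed the null ones (log2 fold change -0.04, 95% interval -0.33 to 0.25, limma adjusted p = 0.870). Exons of Chchd10 on the other strand cover 5.58% of the exonic bases of Mmp11. Mmp14, the membrane protease that activates Mmp2 at the cell surface, was at 14.2, 12.2 and 12.3 FPKM in wild type against 13.5, 15.1 and 13.9 FPKM in the null (log2 fold change 0.13, 95% interval -0.08 to 0.33, limma adjusted p = 0.435). Its membrane-type relatives Mmp15 (1.39 to 2.0 FPKM over all 6 libraries) and Mmp16 also overlapped between the groups. Mmp16 was at 4.66, 2.12 and 4.41 FPKM in wild type and 4.18, 8.36 and 5.0 FPKM in the null, so its highest value was in null embryo 2 and its lowest in wild-type embryo 2 (log2 fold change 0.54, 95% interval -0.13 to 1.20, limma adjusted p = 0.307).

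Mmp2, the gelatinase that digests denatured collagen and basement membrane collagen (chr8:92827291-92853420, plus strand), was at 16.3, 11.1 and 14.6 FPKM in the wild type and at 5.51, 11.8 and 5.75 FPKM in the null. Null embryos 1 and 3 lay far below the wild type, and null embryo 2 lay within it. With all libraries the log2 fold change was -0.85 (95% interval -1.47 to -0.23, SE 0.27, limma adjusted p = 0.106). Without null embryo 2 it was -1.16 (limma adjusted p = 0.0102), so this library alone decided the call. Mesenchyme markers moved with that library: Prrx1 was at 13.6, 53.3 and 12 FPKM in null embryos 1, 2 and 3 against 16.5, 3.92 and 9.93 FPKM in wild type. Pdgfra, another gene of that list, was also highest in embryo 2 among the null libraries, at 6.37, 19.5 and 6.01 FPKM in the null and 23.8, 19.8 and 21.4 FPKM in wild type (log2 fold change -1.15, limma adjusted p = 0.12). Of the tested mesenchyme markers 1 of 9 was called, Postn, which was higher in the null, against a background of 6.83%. Called or not, 6 of these 9 markers were higher in the null and 3 went the other way. Their log2 fold changes had a median of 0.90, where that of all tested genes was -0.06. Null embryo 2 was the highest null library for 12 of the 21 tested members, among them the called Adamts3, Adam19, Timp3 and Adamts5. Null embryo 1 was the highest for 3, the called Adamts18, Adamts17 and Adamts20, and null embryo 3 for 6, among them the called Adam9. This count was not made over all tested genes, so whether it is particular to the members is not known. The part of mesenchymal RNA in these values was not tested.

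**Figure D3:**
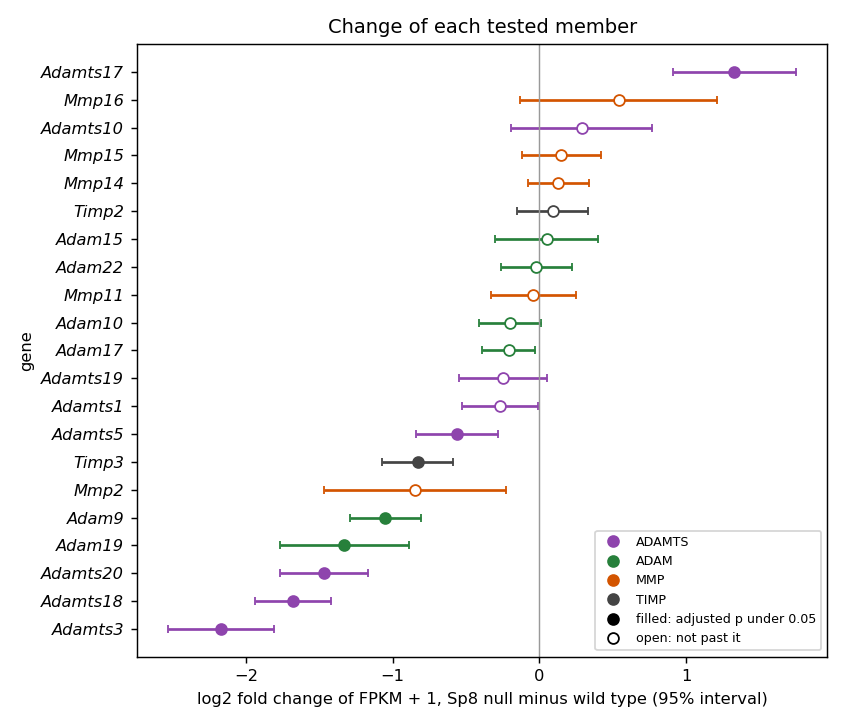
Log2 fold change of FPKM + 1 of the 21 tested members, Sp8 null minus wild type, with the 95% interval of the limma fit across 3 libraries per group. Filled points passed an adjusted p under 0.05: Adamts17 alone lies to the right of 0, and 7 lie to the left, from Adamts5 at -0.56 to Adamts3 at -2.17, while the interval of Mmp2 is among the widest.

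TIMPs inhibit all of these enzyme families to different degrees. Timp3 (ENSMUSG00000020044; chr10:86300372-86349506, plus strand) is bound to the matrix and also blocks Adam17 and several ADAMTS proteases. It was at 8.65, 8.17 and 7.47 FPKM in the wild type and at 4.08, 4.58 and 3.67 FPKM in the null. The groups were clearly apart, with a log2 fold change of -0.83 (95% interval -1.07 to -0.60, SE 0.10, limma adjusted p = 0.00447). Timp2, the inhibitor that also assists Mmp14 in activating Mmp2, was at 11.3, 8.71 and 9.34 FPKM in wild type against 10.4, 10.9 and 9.97 FPKM in the null, with overlapping groups (log2 fold change 0.09, 95% interval -0.15 to 0.34, limma adjusted p = 0.636). Timp3 therefore made up 44.3 ± 2.98% of summed TIMP FPKM in wild type and 27.6 ± 1.17% in the null (SD, n = 3). Timp1 was at 0.517, 0.248 and 0.571 FPKM in wild type and 0.306, 0.366 and 0.235 FPKM in the null, and Timp4 was at most 0.0353 FPKM, with 4 of its 6 libraries at 0. Of the exonic bases of Timp3, 21.3% are shared with exons of Syn3 on the other strand, so its value carries the same limit as that of Adam19.

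**Figure D4:**
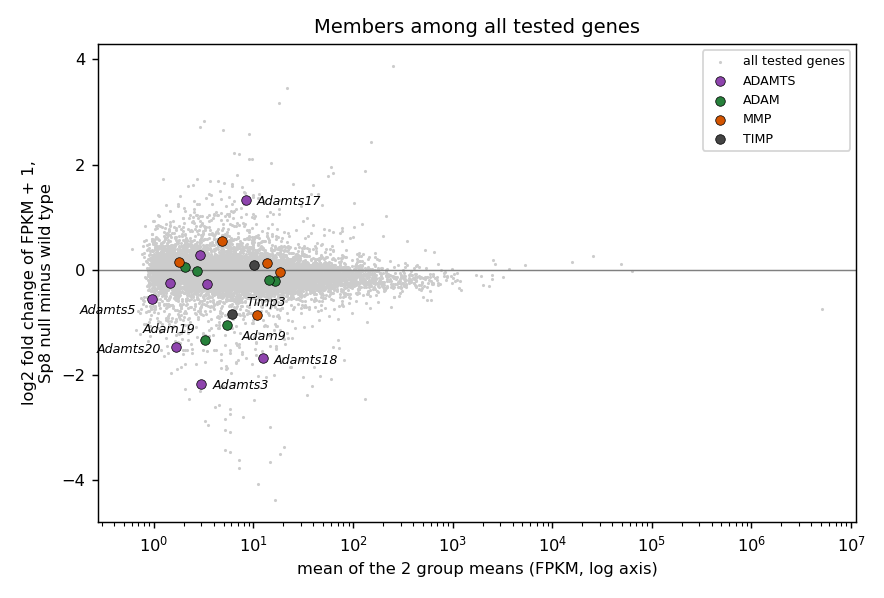
Log2 fold change of FPKM + 1 (Sp8 null minus wild type) against the mean of the 2 group means on a log axis, for all 12133 tested genes in grey and the 21 tested members in colour by family. Called members are named: Adamts3, Adamts18, Adamts20 and Adam19 lie below the bulk of genes of like level and Adamts17 above it, while the other members lie within it or near its edge.

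The 57 members under the filter were mostly silent or near it. Of these, 38 had a value above 0 in some library, and for 6 of the 38 the groups did not overlap, against a background of 11.2% of genes under the filter with a value. Mmp17, a membrane-anchored MMP, was the one of the 6 whose higher group mean reached 0.5 FPKM, at 0.605, 0.850 and 0.557 FPKM in wild type and 1.15, 0.926 and 1.02 FPKM in the null. The others, named after their values were seen, were Adamts15, Adam21 and Adam1b, higher in the null, and Adamts12 and Adamts2, lower there. Adam1b was listed at 0 in all 3 wild-type libraries and did not exceed 0.0266 FPKM in the null. The classical secreted collagenases Mmp1a and Mmp1b and the stromelysins Mmp3 and Mmp10 were listed at 0 throughout, and Mmp13 and Mmp9 each had a value in 1 library, at 0.00916 and 0.0283 FPKM. Reads could not be recovered from FPKM, so no limit in reads can be set for these genes.

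Other genes of the proteolytic system were taken from 10 lists of 82 genes, also chosen with earlier results of these data known. Of the 82 genes 38 were tested. Of the 38, 9 were called, 8 lower and 1 higher, against a background of 6.83%. The median log2 fold change was -0.13 over the 38. The proprotein convertases, which cut the prodomains off ADAMs, ADAMTS proteases and some MMPs, had 2 of 5 called: Pcsk5 had means of 7.50 ± 0.825 FPKM in wild type and 3.85 ± 0.657 FPKM in the null (SD, n = 3; log2 fold change -0.81, limma adjusted p = 0.0132), and Pcsk6 had 1.49 ± 0.108 and 0.380 ± 0.148 FPKM (log2 fold change -0.85, limma adjusted p = 0.0106). Furin, of the same list, was at 4.05 ± 0.321 FPKM in wild type and 4.52 ± 0.302 FPKM in the null and was not called (limma adjusted p = 0.459). St14, the epithelial membrane serine protease matriptase, was 1 of 5 tested serine protease genes called, at 27.0, 22.9 and 26.2 FPKM in wild type against 13.5, 8.62 and 11.1 FPKM in the null (log2 fold change -1.14, limma adjusted p = 0.00597). Among inhibitors other than TIMPs, 2 of 9 fell: the cathepsin inhibitor Cst3 (log2 fold change -0.78, limma adjusted p = 0.00150) and Spint2, an inhibitor of matriptase (-0.33, limma adjusted p = 0.0428). Reck, a membrane inhibitor of MMPs, was at 5.45 ± 0.300 and 4.81 ± 0.651 FPKM (limma adjusted p = 0.442).

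Of the cathepsins 2 of 6 fell, Ctsd, an aspartic protease, and Ctsz (log2 fold changes of -0.42 and -0.47, with adjusted p of 0.0185 and 0.0499 in limma). Bsg, a membrane inducer of MMPs, had a log2 fold change of -0.45 (adjusted p = 0.0168 in limma). Of the 5 tested regulators of sheddases, Tspan14, a tetraspanin that escorts Adam10, rose by 0.30 (limma adjusted p = 0.0499). Vcan, the versican gene and the 1 tested hyalectan, was at 87.9 ± 6.05 FPKM in wild type and 61.6 ± 10.8 FPKM in the null and was not called (log2 fold change -0.52, limma adjusted p = 0.0578). No gene passed among the 3 tested astacin and other zinc proteases, the 2 ADAMTS-like proteins and the 1 EGF receptor ligand, Tgfa (limma, each adjusted p at or over the threshold), where 1 ADAMTS-like gene and 0 of the others had an unadjusted p under 0.05. Of the 9 companion calls, those of Cst3 and St14 held in all 23 other settings, while those of Spint2, Ctsz and Tspan14 were lost in 20, 19 and 19 of 23. The calls of Bsg and Ctsd were each lost in 12 of 23, that of Pcsk5 in 5 of 23 and that of Pcsk6 in 1 of the 18 that tested it.

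The authors' deposited table gave its own comparison for these genes, by a test it does not describe. All 8 called members had a p-value listed as 0 in the authors' deposited table, in the same direction as here, and 31.3% of all tested genes had one under 0.05. The signed fold change of the authors' deposited table was -3.36 for Adamts18, -3.49 for Adamts3, -6.59 for Adamts20, -2.25 for Adam9, -2.21 for Adam19, -2.11 for Adamts5, -1.89 for Timp3 and 2.32 for Adamts17. For Adamts3 the means in the authors' deposited table were 783.2 in wild type and 64.4 in the null, a wider gap than its listed fold change. Of the 13 tested members not called here, 6 had a p-value under 0.05 in the authors' deposited table: Adam17, Adam10, Mmp2, Mmp14, Adamts1 and Adamts19. Of the 57 untested members 8 did, the smallest being that of Adamts15 (1e-06, signed fold change 1.98). The 31.3% covers tested genes only, and no such share was taken over all untested genes, so these 8 have no background.

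Promoters were read for the members, and sequences are shown for ADAMTS genes only. Adam19 (log2 fold change -1.33) moved as far as Adamts17 (1.33) and is not shown. RefSeq promoters on GRCm38.p6, each 250 bases before to 50 bases after a gene's start, were found for 48 of the 78 members, 53 promoters in all. The GC box, GGGCGG on either strand, is the kind of sequence that Sp family factors bind. It was in 43.4% of the members' promoters and in 35.7% of all 32851 promoters. TAATT, a core of homeodomain sites, searched on both strands, was in 22.6% of the members' promoters and 27.0% of all promoters. The 250 bases before the start are shown 5′ to 3′ on the gene's strand. They are given for the 3 ADAMTS genes that fell by at least 2-fold on the log2(FPKM + 1) scale and for Adamts17, which was called higher. Capitals mark the GC box (CCGCCC where it is on the other strand) and TAATT. Their positions are chr8:113848840-113849089 (minus strand) for Adamts18, chr5:89883335-89883584 (minus strand) for Adamts3, chr15:94404351-94404600 (minus strand) for Adamts20 and chr7:66839485-66839734 (plus strand) for Adamts17.

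Adamts18: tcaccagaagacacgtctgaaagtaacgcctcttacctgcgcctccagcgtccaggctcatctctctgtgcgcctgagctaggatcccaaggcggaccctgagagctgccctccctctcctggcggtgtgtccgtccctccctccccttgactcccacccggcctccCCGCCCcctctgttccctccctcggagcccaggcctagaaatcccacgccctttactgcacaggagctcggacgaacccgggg
Adamts3: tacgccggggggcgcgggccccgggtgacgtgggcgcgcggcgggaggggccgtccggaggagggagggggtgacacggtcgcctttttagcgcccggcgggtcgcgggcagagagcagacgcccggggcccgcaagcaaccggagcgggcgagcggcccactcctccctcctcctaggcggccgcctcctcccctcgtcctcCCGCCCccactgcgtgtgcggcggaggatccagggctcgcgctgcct
Adamts20: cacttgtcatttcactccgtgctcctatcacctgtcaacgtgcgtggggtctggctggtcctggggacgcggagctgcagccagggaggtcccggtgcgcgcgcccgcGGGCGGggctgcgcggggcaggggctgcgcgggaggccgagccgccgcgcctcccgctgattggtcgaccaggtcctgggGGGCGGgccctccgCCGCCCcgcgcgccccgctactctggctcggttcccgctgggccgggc
Adamts17: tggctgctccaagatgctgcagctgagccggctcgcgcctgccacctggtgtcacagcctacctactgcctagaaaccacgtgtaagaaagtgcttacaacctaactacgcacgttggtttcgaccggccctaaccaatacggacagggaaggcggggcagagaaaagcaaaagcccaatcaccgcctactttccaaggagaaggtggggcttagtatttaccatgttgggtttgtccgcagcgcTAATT

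The promoters of Adamts18 and Adamts3 each held 1 GC box, on the other strand. That of Adamts20 held 3, and its RefSeq start lies inside the gene as GENCODE gives it. That of Adamts17 held none and held TAATT in the last 5 bases before the start. A match is a description of the letters in this window, and its presence or absence says nothing on whether a factor binds there. Among the other called members in the RefSeq table, Adam19 had 3 promoters, with 0, 1 and 0 GC boxes. Timp3 had 1 promoter, with 2 GC boxes.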

How the data were processed

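Per the labels' protocols, polyadenylated RNA of 6 libraries was prepared with TruSeq v2. The submitters' processing notes name GRCm38, FastQC, TopHat2, SAMtools, Cufflinks and DESeq2, without versions or roles. The authors deposited FPKM per library for Ensembl build 87 genes, and in the same table per gene a p-value, a mean signal for each group and a fold change as a signed score. How the deposited means were normalized, whether the p-value was adjusted, and the strand setting were not given in the sources used here.

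Tests used log2(FPKM + 1) and kept genes that 3 or more libraries listed at 1 FPKM or higher, with limma 3.58.1 in R 4.3.3 (trended, two-sided, genotype as the only term, Benjamini-Hochberg over 12133 genes). This scale understates changes of low genes. On simulated data with 11922 genes, 83% of 2-fold and 97% of 4-fold changes were recovered. Depth is relative only, so no count test or counting interval was possible. Group labels came from the sample titles. The members and lists were chosen with earlier results of these data known. Named were Sp8, called members, TIMPs, the 15 members highest in wild type, non-overlapping members under the filter whose higher mean reached 0.5 FPKM and called companion genes; other names were chosen after their values were seen. Alternatives covered scaling, pseudocount, filters, trend, failed estimates, sample names, a replicate block and leaving out each library. All 78 members matched GENCODE M21 by Ensembl identifier.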

Additional observations from a re-analysis of the deposited data

How the results depend on the processing

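Called members numbered 8, and 4 when the filter was a mean of 5 FPKM (10 members tested), 3 in the libraries whose sample name starts with 5 (18 tested; 5 with the same genes tested, chosen after seeing the data) and 5 to 8 with one library left out, or 7 to 8 with the same genes tested. All genes called numbered 829, and 545 with the first digit of sample names as a covariate, 342 with no filter, 244 at an adjusted p under 0.01, 163 in the libraries named with 5 (251 with the same genes tested), and 213 to 665 with one library left out (with the same genes tested 394, 408 and 642 without null embryo 1, 2 and 3 and 445, 316 and 510 without wild-type embryo 1, 2 and 3). The share of calls that were higher, 24.6%, was 37.2% under median-of-ratios and 41.7% under upper-quartile scaling. Companion calls numbered 9, and 3 with no filter, 2 in the libraries named with 5 (also 2 with the same genes tested), 2 at an adjusted p under 0.01, and 2 to 7 with one library left out (3 to 7 with the same genes tested).

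Embryo numbers did not pair the libraries: deviations of same-numbered libraries correlated at -0.16, -0.14 and -0.07. A replicate block gave 328 called genes, 7 members and 4 companion genes. The calls of Adamts18, Adamts3, Adamts20, Adam9 and Adamts17 were kept in every setting that tested them. That of Timp3 was lost in the libraries named with 5 (limma adjusted p = 0.0581, or 0.0607 with the same genes), and that of Adam19 there (0.0822, or 0.0903) and with no filter (0.0548). The names starting with 4 cover 1 library per genotype and allow no fit of their own. Of 685 values of 31 genes, 557 kept direction and call, 108 lost the call, 2 gained it (Mmp2) and 18 changed sign. Sign changes were found only in Mmp11 (0.03 and 0.05 under the 2 scalings), Adam22 (0.03 and 0.05 there, 0.00 in the libraries named with 5) and Adam15, with ranges over the fits without one library of -0.16 to 0.08 for Mmp11, -0.09 to 0.02 for Adam22 and -0.09 to 0.15 for Adam15. The causes were not tested.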
